A study of Mus musculus with 4 samples.

Results

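Genes of the muscle atrophy programme were measured on expression arrays of gastrocnemius, the large calf muscle, from transgenic mice (MCK-PPARa) and from their non-transgenic littermates (NTG). The transgenic animals carry extra PPARα, a lipid-sensing nuclear receptor, in skeletal muscle. The genes were the ubiquitin ligase genes Fbxo32, Trim63 and Fbxo30, the forkhead factor genes Foxo1 and Foxo3, and Klf15, Cdkn1a, Gadd45a, Bnip3 and Eif4ebp1, and their probe sets were taken by gene symbol. Of these 10 genes, 8 had probe sets on the array, 17 of the 22690 in all, while Trim63 and Fbxo30 had none under their symbols and were not analysed here. There were 2 arrays of total RNA per genotype, each with a replicate number, and the series describes 2 mice of each. The transgene is named for the promoter of muscle creatine kinase, a gene of differentiated striated muscle, and the labels call the controls littermates. The sources used here do not give strain, age, sex or feeding state. No label says which animal an array came from, so p-values cover the spread between these 4 arrays, which may be technical.

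When muscle is unloaded, starved or denervated it breaks down its own protein. Foxo1 and Foxo3, which insulin signalling through Akt keeps out of the nucleus, switch on the ligase genes Fbxo32 (atrogin-1) and Trim63 (MuRF1), whose products mark muscle proteins for the proteasome, together with genes of autophagy such as Bnip3 and the translation brake Eif4ebp1. Klf15 is a glucocorticoid-responsive factor of the same programme, Gadd45a is a stress gene that denervation induces, and Cdkn1a (p21) encodes an inhibitor of cyclin-dependent kinases that p53 and other factors control.

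Signals are the deposited MAS5 intensities, which have no unit. Each change is the transgenic mean less the control mean of log2(signal + 64.2), with its standard error (SE, n = 2 per group), a scale that understates the change of dim probe sets. They come from limma fitted over all genes, where the brightest probe set stands for a gene, or over every probe set. Both fits use Benjamini-Hochberg adjustment over everything tested and a threshold of 0.05. Values of a gene's brightest probe set come from the fit by gene unless stated. Those of any other probe set come from the fit over every probe set, so their SE and adjusted p are not directly comparable. With 2 arrays a side the smallest two-sided p of an exact permutation test is 0.333. Median signals of the 4 arrays ran from 582 to 700.3, and the array number limits the precision throughout. Replicate number also set the arrays apart, most of all at the 5′ end of mouse 18S ribosomal RNA. A probe set there read 2202 (control) and 2313 (transgenic) for replicate 1 but 28.9 and 44.7 for replicate 2. The probe set at the 3′ end differed less, at 1414 and 1978 for replicate 1 and 527 and 511 for replicate 2. The difference between the arrays of each number is therefore given beside the pooled value. The targeted gene Ppara read 633 (replicate 1) and 2674 (replicate 2) in the controls, and 7969 and 15226 in the transgenic muscle in the same order. Defining markers of skeletal muscle were bright on every array, with the dimmest of the 13 tested at a mean signal of 63386.

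Cdkn1a was about 4 times as high in the transgenic muscle on both of its probe sets, and it was the only gene of the set with an adjusted p under 0.05 in any of the fits made by gene. The ligase gene Fbxo32, Klf15, Bnip3 and the brightest probe sets of Foxo1, Foxo3 and Eif4ebp1 did not pass, and the 95% interval of each change spanned 0. Of the 7 genes that passed the filter on dim probe sets, 4 had a change above 0 and 3 below 0. Their median change was 0.067, against 0.053 over all 8400 genes tested, and it was 0.29 without MCK-PPARa replicate 2. In limma none of the 7 passed the adjusted threshold, against 0.0595% of all genes tested, and 1, Cdkn1a, had an unadjusted p under 0.05, against 5.85% of all genes. With a replicate block 1 of the 7 passed, again Cdkn1a, against 2.33% of all genes. The plot of signals by array shows all 17 probe sets.

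**Figure D1:**
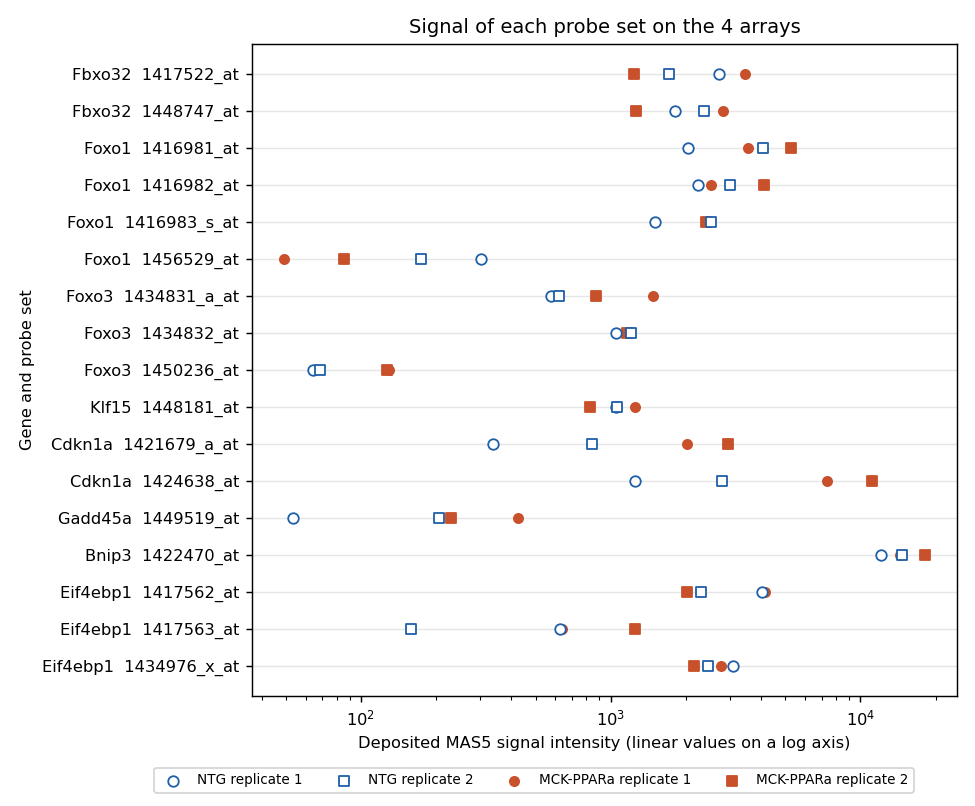
Deposited MAS5 signal (log axis) of each of the 17 probe sets, 1 row per probe set, with NTG arrays as open blue symbols and MCK-PPARa arrays as filled orange symbols (circles replicate 1, squares replicate 2). Both Cdkn1a rows have the transgenic arrays well to the right of the controls, whereas the Fbxo32, Klf15 and Bnip3 rows have overlapping groups.

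The brighter Cdkn1a probe set, 1424638_at, read 1257 (replicate 1) and 2784.5 (replicate 2) in the controls, and 7316 and 11128 in the transgenic muscle in the same order. Both transgenic arrays were above both controls, and replicate 2 was the higher array in each genotype. The change was 2.23 ± 0.42 (SE) or 4.69-fold, with a 95% interval from 1.25 to 3.21. Without a block this did not pass limma's test (adjusted p = 0.178 over all genes), and with a replicate block it did (adjusted p = 0.00165). The SE with the block was 0.22. That fit leaves little to estimate the spread of each gene, so its p-values rest largely on spread shared across genes. No label says that same-numbered arrays are paired. Taken within each replicate number, the change was 2.48 for replicate 1 and 1.97 for replicate 2. By unadjusted p Cdkn1a stood at rank 38 of 8400 genes, and by size of rise at rank 18.

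The dimmer Cdkn1a probe set, 1421679_a_at, read 338 and 842 in the controls and 2026 and 2950 in the transgenic muscle. It gave 2.06 ± 0.47 (limma adjusted p = 0.377 over every probe set), with 2.38 within replicate 1 and 1.73 within replicate 2. With the block the limma adjusted p of the dimmer and the brighter probe set was 0.0114 and 0.00107 over every probe set, where 1.16% of all probe sets passed. The 4 arrays therefore took the same order on both probe sets. That order was NTG replicate 1, NTG replicate 2, MCK-PPARa replicate 1 and MCK-PPARa replicate 2 from lowest to highest. Ppara had it too, as did 7.6% of all genes tested.

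The call on Cdkn1a depended on how the spread was estimated. Its change was between 2.08 and 2.27 under 8 other processing settings with all 4 arrays, with limma adjusted p from 0.155 to 0.328. With single arrays left out the change was 1.67 and 2.78 for the controls (replicates 1 and 2 removed in turn), and 2.53 and 1.93 for the transgenic arrays likewise. In the fit by gene the adjusted p from limma was then 0.0375, 3.13e-06, 2.36e-05 and 0.00434 in the same order. In the fit over every probe set the brighter probe set passed without NTG replicate 1 (limma adjusted p = 0.0269) and without NTG replicate 2 (4.7e-07), and did not pass without either transgenic array (0.181 and 0.451). Each fit without 1 array compares a pair with a single array that is assumed to vary like the others, and adds part of the difference between replicate numbers to the comparison.

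**Figure D2:**
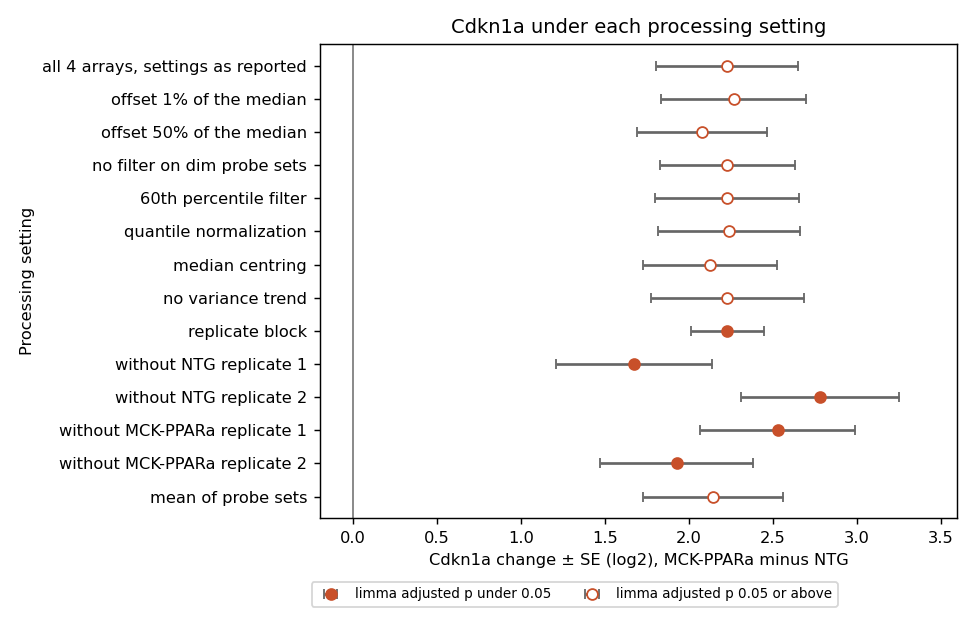
Change of Cdkn1a (log2, MCK-PPARa minus NTG) with its SE under the reported settings and each alternative, with filled points where the limma adjusted p over all genes was under 0.05. The change lies between 1.67 and 2.78 throughout, and the filled points are the fits with the replicate block or with 1 array left out.

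Cdkn1a has a pair of start sites in RefSeq, and their promoter windows are printed since it is the gene on which the comparison turns. Each runs from 250 bases before to 50 after a start site on the plus strand of GRCm38.p6. Capitals mark matches to the p53 half-site, the short element that p53 binds in pairs, searched on both strands. Only exact matches were taken, so a half-site with a mismatch is not marked.

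Cdkn1a upstream start, chr17:29090729-29091028: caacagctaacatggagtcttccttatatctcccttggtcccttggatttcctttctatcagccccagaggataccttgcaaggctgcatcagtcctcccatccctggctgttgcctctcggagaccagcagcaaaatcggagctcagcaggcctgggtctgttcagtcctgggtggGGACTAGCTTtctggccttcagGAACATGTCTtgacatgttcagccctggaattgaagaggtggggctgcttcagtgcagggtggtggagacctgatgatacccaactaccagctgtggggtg
Cdkn1a downstream start, chr17:29093519-29093818: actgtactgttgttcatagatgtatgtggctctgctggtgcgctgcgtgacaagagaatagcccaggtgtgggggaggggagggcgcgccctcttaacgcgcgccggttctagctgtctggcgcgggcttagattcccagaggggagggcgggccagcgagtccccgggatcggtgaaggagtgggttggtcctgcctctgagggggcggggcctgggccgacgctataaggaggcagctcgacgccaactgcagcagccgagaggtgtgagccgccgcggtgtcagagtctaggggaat

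The upstream window holds 2 matches, which do not overlap, beginning at positions -73 and -51 from the start site, and the downstream window holds 0. Whether these 2 act as a pair was not tested. Of all 32851 RefSeq windows of this length, 8.36% hold at least 1 match. Gadd45a, another p53 target, has 1 match in its window. The forkhead motif GTAAACA, present in 3.65% of windows, was found on either strand in the window of Trim63, at position -194, and not in those of Foxo1, Foxo3, Klf15, Cdkn1a, Gadd45a, Bnip3 or Fbxo30. The E-box CACGTG, present in 7.15% of windows, occurs 3 times in the Klf15 window and 1 time in that of Bnip3. Neither the PPAR direct repeat, AGGTCA repeated with 1 base between (0.0396% of windows), nor the glucocorticoid element, AGAACA and TGTTCT with 3 bases between (0.00913%), was found in these windows. The windows of Fbxo32 and Eif4ebp1 were not analysed here. These matches describe letters in short windows and not binding.

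Fbxo32, the F-box subunit that brings muscle proteins to a ubiquitin ligase complex, did not differ between genotypes beyond the spread of the arrays. Its brighter probe set, 1417522_at, read 2715 and 1707 in the controls and 3465 and 1245 in the transgenic muscle. The transgenic arrays were the highest and the lowest of the 4. The change was -0.046 ± 0.49 (limma adjusted p = 0.996), with a 95% interval from -1.18 to 1.09, so changes inside these bounds were not excluded. The other probe set, 1448747_at, read 1808 and 2357 in the controls and 2808 and 1258 in the transgenic muscle. Both probe sets were higher in the transgenic array of replicate 1 (by 0.34 and 0.62) and lower in that of replicate 2 (by -0.44 and -0.87), so that the within-number differences had opposite signs. Leaving out NTG replicate 1 or MCK-PPARa replicate 2 turned the change of Fbxo32 above 0 (0.28 and 0.67).

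Foxo1, a factor that drives the ligase genes and also acts in fuel use, had 4 probe sets. The brightest, 1416981_at, read 2041 and 4058 in the controls and 3541 and 5291 in the transgenic muscle, with overlapping groups. Its change was 0.58 ± 0.40 (limma adjusted p = 0.964), or 0.78 within replicate 1 and 0.38 within replicate 2. With the block it did not pass either (limma adjusted p = 0.257). The probe sets 1416982_at and 1416983_s_at gave 0.31 ± 0.34 and 0.32 ± 0.34 with overlapping groups. The fourth, 1456529_at, was dim and lay below the filter. It read 302 and 174 in the controls and 49.1 and 85.5 in the transgenic muscle, both transgenic arrays below both controls, for -1.18 ± 0.51 (limma adjusted p = 0.895). The 3 brighter probe sets and the dim one thus differed in the sign of their change, and none passed. Whether the dim probe set reads the same Foxo1 transcript as the others was not tested.

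The 3 probe sets of Foxo3, the factor best known for switching on Fbxo32 and autophagy genes, also differed among themselves. The brightest, 1434832_at, read 1046 and 1207 in the controls and 1200.0 and 1160 in the transgenic muscle, nearly level across the 4 arrays. The change was 0.067 ± 0.32 (limma adjusted p = 0.995) with a 95% interval from -0.67 to 0.80, and it was -0.0026 under quantile normalization, -0.035 under median centring and 0.46 with the mean of the probe sets past the filter. The probe set 1434831_a_at read 577 and 620 in the controls and 1480 and 875 in the transgenic muscle. Both transgenic arrays were above both controls there, by 0.86 ± 0.43 (limma adjusted p = 0.972 and, with the block, 0.402). The third, 1450236_at, read 64.4 and 68.8 in the controls and 130 and 127 in the transgenic muscle, also without overlap, but near the offset, where MAS5 signals are noisy.

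Klf15, which also switches on genes of amino acid breakdown, had 1 probe set, 1448181_at. It read 1050 and 1062 in the controls and 1249 and 825 in the transgenic muscle, so the controls lay between the transgenic arrays. The change was -0.051 ± 0.35 (limma adjusted p = 0.995), with a 95% interval from -0.87 to 0.76.

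Bnip3, a mitochondrial membrane protein that recruits the autophagy machinery, was among the brighter genes on the array. Its probe set 1422470_at read 12046 and 14626 in the controls and 14340 and 18200 in the transgenic muscle. The lower transgenic array fell just under the higher control. The change was 0.28 ± 0.30 (limma adjusted p = 0.972), and it was near this in each replicate number, at 0.25 and 0.31. With 1 array left out it ran from 0.11 (without MCK-PPARa replicate 2) to 0.45 (without MCK-PPARa replicate 1), and median centring gave 0.18.

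Eif4ebp1 encodes the protein that binds the cap-binding factor eIF4E and holds back translation until mTORC1 phosphorylates it. Its brightest probe set, 1417562_at, read 4041 and 2297 in the controls and 4155 and 2017 in the transgenic muscle. The arrays fell into pairs by replicate number and not by genotype, and the change was -0.071 ± 0.43 (limma adjusted p = 0.995). The probe set 1434976_x_at gave -0.17 ± 0.31 with overlapping groups. The dimmest, 1417563_at, read 627 and 159 in the controls and 638 and 1253 in the transgenic muscle, for 1.29 ± 0.65 (limma adjusted p = 0.972). That value rests on the replicate 2 arrays, with 2.56 between them and 0.023 between the replicate 1 arrays. With the mean of the 3 probe sets in place of the brightest, the change of Eif4ebp1 was 0.35 (limma adjusted p = 0.956), a sign set by 1417563_at. Whether that probe set reads the same transcript as the other 2 was not tested.

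Gadd45a was below the filter, and no value of it entered the fit by gene. Its probe set 1449519_at read 53.3 and 205 in the controls and 427 and 229 in the transgenic muscle. The groups did not overlap, but by a narrow margin on the replicate 2 arrays. The change was 1.09 ± 0.61 (limma adjusted p = 0.972 over every probe set), with 2.06 within replicate 1 and 0.12 within replicate 2. NTG replicate 1 lay under the offset of 64.2, a range in which this scale understates a change.

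Over all 17 probe sets, 11 had a change above 0 and 6 below 0. The groups did not overlap for 7 of them, against 33.8% of all probe sets. In 6 the transgenic arrays were higher, against 20.8% of all probe sets, and in 1 they were lower, against 13.0%. The 6 were both Cdkn1a probe sets, 2 of Foxo3, that of Gadd45a and 1 of Eif4ebp1. In the fit over every probe set 0 of the 17 passed without the block, against 0.0196% of all probe sets, and 3 had an unadjusted p under 0.05, against 5.53%. These 3 were the 2 of Cdkn1a and the dim one of Foxo1.

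**Figure D3:**
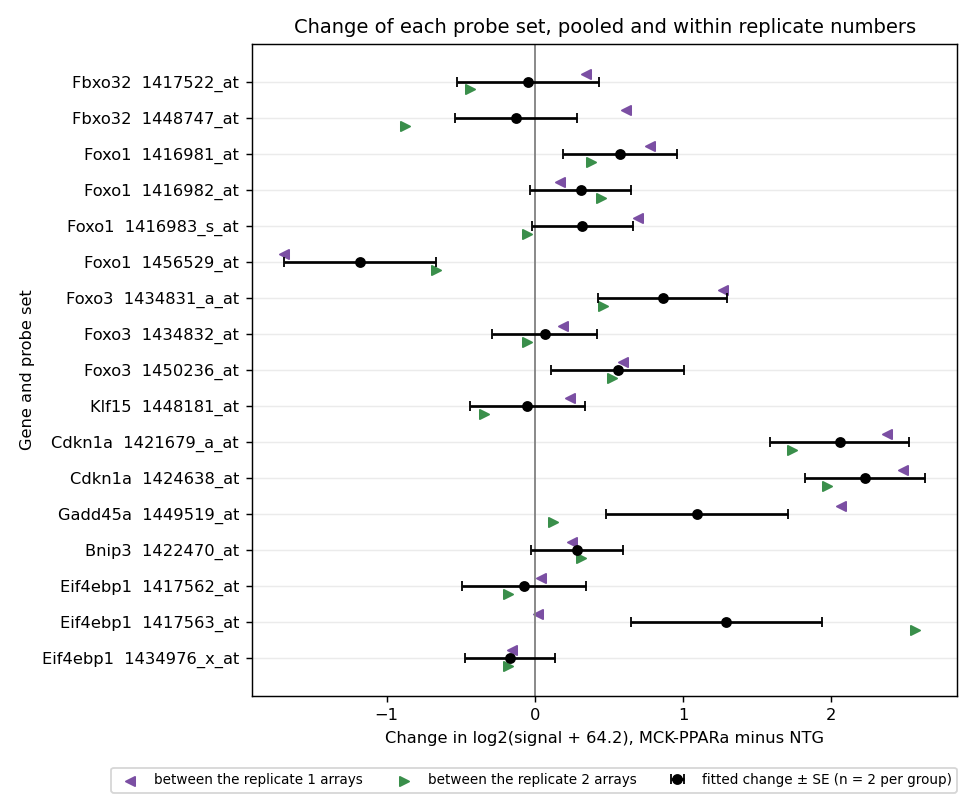
Change of each of the 17 probe sets on the log2 scale, from the fit over every probe set (black points with SE, n = 2 per group). Coloured points give the difference within replicate 1 (purple) and within replicate 2 (green). For Cdkn1a both differences lie far above 0, for Fbxo32 and Klf15 they lie on either side of 0, and for Gadd45a and the middle Eif4ebp1 row 1 replicate number carries the change.

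The surrounding pathway was read from gene lists, in which no gene passed the limma test over all genes without the block. For comparison with the counts below, 4658 of all 8400 genes tested had a change above 0 and 3742 below. With the block 2.33% of all genes passed, 115 of them higher and 81 lower. Of the other Foxo factors and regulators of the family, 8 genes were tested, 4 above 0 and 4 below, with a median change of -0.054. The kinase gene Sgk1, whose product phosphorylates Foxo proteins as Akt does, read 15636 and 8796 in the controls and 6088 and 2786 in the transgenic muscle, both transgenic arrays lower. Its change was -1.49 ± 0.45 (limma adjusted p = 0.50; 0.00551 with the block), and it was the 1 gene of the list that passed with the block. Crebbp, a coactivator, and Pdpk1, the kinase that activates Akt, did not pass (-0.79 ± 0.37 and -0.48 ± 0.30).

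Of 17 other genes of muscle ubiquitin ligases, adaptors, conjugating and deubiquitinating enzymes, 7 had a change above 0 and 10 below. The list pools enzymes that remove ubiquitin (Usp2, Usp14 and Usp19) with the rest. Its median was -0.19, and 0 of its genes passed with the block. Without the block 1 gene had an unadjusted p under 0.05, Trim54 (MuRF3), a relative of Trim63 on the sarcomere, at -0.67 ± 0.29. Next by p were the conjugating enzyme genes Ube2d1 (-0.71 ± 0.37) and Ube2j1 (-0.51 ± 0.30). Autophagy and mitophagy genes had a median of 0.020 over 28 tested, 17 above 0 and 11 below, and again 0 passed with the block, nor did any have an unadjusted p under 0.05 without it. Gabarapl1, a Foxo target of the autophagosome membrane, had a change of 0.62 ± 0.30, Pink1, the mitophagy kinase, 0.82 ± 0.40, and the lysosomal membrane gene Lamp2 -0.78 ± 0.38.

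The glucocorticoid list, made up of the receptor gene Nr3c1 and genes counted as its muscle targets, went both ways. Of 16 tested, 8 were above 0 and 8 below, with a median of -0.096. Without the block the limma unadjusted p was under 0.05 for 2 higher and 3 lower genes, against 5.85% of all genes. With the block 2 rose and 2 fell. Pik3r1, the regulatory subunit of phosphoinositide 3-kinase, read 875 and 498 in the controls and 3054 and 1853 in the transgenic muscle (1.75 ± 0.40, limma adjusted p = 0.285 and 0.00835 with the block). The metallothionein gene Mt1 was at 1.06 ± 0.34 (limma adjusted p = 0.569; 0.0302 with the block). The 2 that fell with the block were Sgk1, also on the Foxo list, and the transcription factor gene Cebpd, named after its value was seen (-1.12 ± 0.38, limma adjusted p = 0.647; 0.0424 with the block).

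Among 22 p53 targets, Gadd45 relatives and cell cycle genes other than Cdkn1a, 14 were above 0 and 8 below, with a median of 0.19. All 8400 genes tested had 4658 above 0 and 3742 below. With the block 2 of the 22 rose and 0 fell, where 2.33% of all genes passed. The cyclin gene Ccnd2 read 2872 and 3481 in the controls and 7868 and 7132 in the transgenic muscle (1.23 ± 0.29, limma adjusted p = 0.292; 0.0186 with the block). Phlda3, a p53 target whose product inhibits Akt, read 3519 and 6105 in the controls and 13453 and 11472 in the transgenic muscle (1.41 ± 0.35, limma adjusted p = 0.323; 0.0233 with the block). For both genes the transgenic arrays were above the controls in each replicate number. Cdk2, a kinase that Cdkn1a inhibits, did not pass (1.02 ± 0.44). Among the genes below 0, named after their values were seen, were the p53 target Mdm2 (-0.41 ± 0.29) and Gadd45b (-0.63 ± 0.44). Both were lower on both transgenic arrays and did not pass.

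In the denervation list, which also names Gadd45a, 7 genes were tested, 5 above 0 and 2 below, with a median of 0.27. Chrna1, the acetylcholine receptor subunit that denervated muscle makes in quantity, read 1965 and 3784 in the controls and 12457 and 12678 in the transgenic muscle. Its change was 2.18 ± 0.36 (limma adjusted p = 0.115; 0.00272 with the block), and it was the 1 gene of this list that passed with the block. Ncam1, an adhesion molecule of denervated fibres, and the myogenic factor Myog did not pass (1.31 ± 0.44 and 0.69 ± 0.31). The 2 below 0, named after their values were seen, were the transcription factor gene Runx1 (-1.09 ± 0.77) and Ankrd1 (-0.40 ± 0.42).

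Of 19 genes of cap-dependent translation and mTORC1, 8 were above 0 and 11 below, with a median of -0.096. Atf4, the stress factor that can drive Gadd45a and Eif4ebp1, read 8653 and 8103 in the controls and 4571 and 3895 in the transgenic muscle (-0.98 ± 0.28, limma adjusted p = 0.467). With the block Atf4 fell (limma adjusted p = 0.0356), the 1 gene of this list to pass. The mTORC1 activator Rheb and the translation factor gene Eif4g2 did not pass (-0.67 ± 0.29 and -0.61 ± 0.41). Medians were -0.14 over 16 myostatin, activin and Smad genes, 0.12 over 9 Klf genes and 0.0054 over 11 NF-kB and cytokine genes, and 0 genes of these 3 lists passed with or without the block. Without the block the unadjusted p was under 0.05 for 1 Klf gene, Klf10 (1.04 ± 0.31), 1 gene of the last list, Nfkb2 (1.02 ± 0.37), and 0 of the first, where the receptor gene Acvr1b had the lowest (-0.68 ± 0.31).

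**Figure D4:**
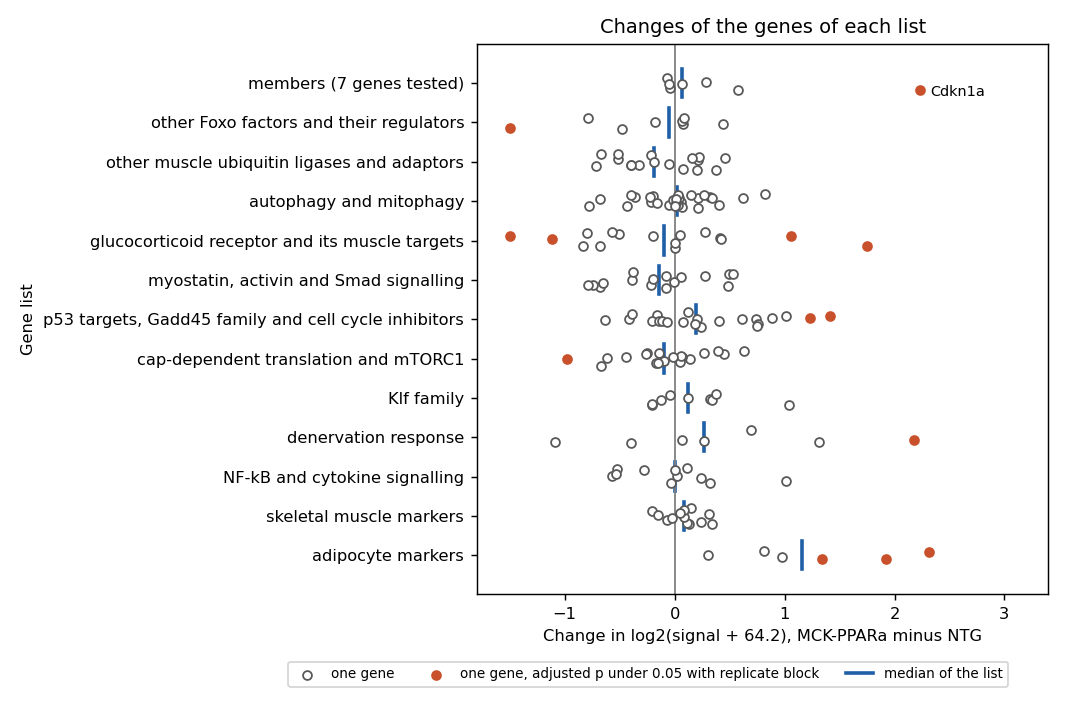
Change of each tested gene (points, log2 scale) in the 10 listed genes' 7 tested members, the pathway lists and 2 marker lists, with the list medians as blue bars and filled points for a limma adjusted p under 0.05 with the replicate block. Most points of the atrophy, autophagy and translation lists lie near 0, whereas Cdkn1a stands apart from the other members and the adipocyte markers lie above 0.

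Markers of other cells were read beside these values, since Cdkn1a and the p53 and cell cycle genes are not particular to muscle fibres. In bulk RNA, more cells of a type and more RNA per cell cannot be told apart. All 6 adipocyte markers tested had a change above 0, with a median of 1.16. Their summed signal was 13909 and 11315 in the controls and 64885 and 30883 in the transgenic muscle, and 3 of the 6 rose with the block against 2.33% of all genes tested. These were Scd1 (2.32 ± 0.52) and Fabp4 (1.93 ± 0.38), which muscle also expresses, and the adipokine gene Adipoq (1.34 ± 0.31; limma adjusted p = 0.292, and 0.0233 with the block), whose signal was 1072 and 1504 in the controls and 3477 and 3180 in the transgenic muscle. Most of the summed signal in the transgenic muscle came from Scd1 and Fabp4. Within the transgenic group each of the 6 markers but Retn (2053 and 2662) was higher in replicate 1, and Adipoq was nearly level. Endothelial markers (9 tested, median 0.35) and macrophage and immune markers (8 tested, median 0.26) were mostly above 0, with summed signals of 14591 and 15606 against 19987 and 20102 for the first and 13352 and 12430 against 17736 and 16274 for the second. Medians were 0.19 for 8 fibroblast, 0.14 for 4 nerve and -0.0027 for 7 smooth muscle markers. They were 0.26 for only 2 red blood cell markers, of which Hba-a1 was dim, and -0.25 for 6 tendon markers. Of the markers outside the adipocyte list 1 passed with the block, the tendon matrix gene Thbs4, which fell (-1.20 ± 0.28; limma adjusted p = 0.292, and 0.0157 with the block). The skeletal muscle markers had a median of 0.088 over 13. The part of other cells in the Cdkn1a difference was not tested.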

How the data were processed

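Total RNA was hybridised to 1 mouse expression array per sample. The authors deposited 1 signal intensity per probe set, made with MAS5 per the submitters' processing notes. The sources used here name no version or settings and hold no detection calls. The 2% trimmed means of the 4 arrays lay between 1500.6 and 1500.7, so no further normalization was applied. Names came from the platform annotation, in which 20380 probe sets had 1 gene symbol. Values were taken as log2(signal + 64.2), the offset being 10% of the median. For the fit by gene, the filter removed probe sets whose mean lay under the 40th percentile, and each gene took its brightest remaining one (8400 genes). The fit over every probe set had no filter. Both used limma 3.58.1 (lmFit, eBayes with a variance trend) under R 4.3.3 with no covariate, and were tested on simulated data. Alternatives changed the offset, filter, normalization, variance trend, choice of probe set, replicate block and arrays. The genes and lists were chosen with earlier results of these data known. Named genes were the 10 with all their probe sets, Ppara, and up to 3 per pathway list and 2 per marker list by smallest unadjusted p. Beyond this rule Adipoq, Retn, Cebpd, Mdm2, Gadd45b, Runx1 and Ankrd1 were named after their values were seen. Promoter windows are RefSeq's on GRCm38.p6. The labels do not say what a replicate number marks. Same-numbered arrays deviated together (r = 0.47, taken across genes rather than independent replicates).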

Additional observations from a re-analysis of the deposited data

How the results depend on the processing

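A replicate block (the replicate number as a term of the fit) gave 196 genes past the threshold in place of 5, and 1 of the 7 genes of the set (Cdkn1a) and 2 of its 17 probe sets (both of Cdkn1a) in place of 0. The block changed no other call among the 7. The number of genes that passed was 2 with the 60th percentile filter, 3 with median centring, 12 with the mean of probe sets, and from 68 (without NTG replicate 2) to 150 (without MCK-PPARa replicate 1) with 1 array left out. With 1 array left out, 1 of the 7 genes passed each time, and 0 to 2 probe sets. The median change of the set was 0.35 with the mean of probe sets and 0.043 to 0.29 with 1 array left out. Signs turned for Eif4ebp1 (0.35 with the mean of probe sets, and -0.58 to 0.44 with 1 array left out). They also turned for Foxo3, at -0.0026 with quantile normalization, -0.035 with median centring and -0.031 to 0.16 with 1 array left out. Foxo3 kept its sign with the mean of probe sets, at 0.46. With 1 array left out the sign turned too for Fbxo32 (-0.76 to 0.67) and for Klf15 (-0.33 to 0.23). Cdkn1a ran from 1.67 to 2.78 and Foxo1 from 0.092 to 1.06 with 1 array left out. Of 91 values of single genes under the alternatives, 77 kept their sign and their side of the threshold, 9 turned and 5 passed where the reported fit did not. The causes were not tested. Signal over background limits the dim probe sets of Gadd45a, Foxo1 and Foxo3, since no detection calls were used here.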
